A study of Mus musculus with 280 samples.

Results

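Gdf9, Bmp15, Zp1, Zp2, Zp3, Oosp1 and Bcl2l10 are 7 of the 11076 genes measured in single mouse embryos made by in vitro fertilization, and they were chosen by name as rows of the expression table. All 7 are known from the growing mouse oocyte. Gdf9 and Bmp15 encode growth factors of the TGF-beta family that the oocyte secretes and the surrounding granulosa and cumulus cells sense. Zp1, Zp2 and Zp3 encode the glycoproteins of the zona pellucida, the coat that the oocyte builds around itself and that sperm meet. Oosp1 encodes a secreted oocyte protein, and Bcl2l10, also called Diva, a Bcl2 family protein abundant in oocytes. The oocyte stores such messenger RNAs, and the embryo degrades much of this maternal supply around the time its own genome becomes active, which in the mouse is largely at the 2-cell stage.

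The embryos came from FVB mice, an inbred strain. The sires ate either the control diet or one low in protein, the egg donors of both groups were on control diet, and the culture medium was KSOM. Of 280 embryos, 139 had control sires and 141 low protein sires, with 10 sires per diet and 20 egg donors; an age row that stands beside the egg donors lists 5 to 10 weeks without saying whose age it is. There were 41 control and 39 low protein 2-cell embryos, 42 and 40 4-cell embryos, 2 and 2 8-cell embryos, 38 and 35 morulae, 14 and 22 blastocysts, and 2 and 3 late blastocysts. Eggs of the same donor were split between the diets for 16 of 17 donors of 2-cell embryos, 16 of 17 of 4-cell embryos, 15 of 15 of morulae and 4 of 6 of blastocysts. The control and low protein blastocysts came from only 2 and 3 sires. Embryos of 1 sire share the father that received the diet, so p-values below measure the spread between embryos.

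Each embryo was 1 library, and levels are in TPM, an expression unit scaled by gene length and to a fixed total per embryo. TPM keeps no sequencing depth, so depth is unknown, and a value is a share of the embryo's transcripts. A smaller share, fewer cells holding a transcript and less RNA per cell cannot be told apart in such libraries. Between 3626 and 10204 genes reached 1 TPM in an embryo, with a median of 8863. The embryos were spread over 8 plates. Stage labels went with known stage genes. The summed level of 10 genes of the embryo's own 2-cell transcription, such as Zscan4d, had a median of 4649 TPM in control 2-cell embryos and 291 TPM in control 4-cell embryos, and the summed level of 9 blastocyst genes, such as Cdx2 and Krt8, had a median of 2184 TPM in control morulae and 12630 TPM in control blastocysts. Of 18 markers of cumulus and granulosa cells, which surround the oocyte, 3 were in the table. Their summed level ran from 0 to 142 TPM in control 2-cell embryos and from 0 to 94.5 TPM in low protein ones. It ran from 97.9 to 281 TPM in control 4-cell embryos and from 48.8 to 315 TPM in low protein ones. In morulae its median was 27.6 TPM in control and 31.8 TPM in low protein embryos, below the 4-cell medians of 184.6 and 161.6 TPM. The part of such cells in the levels of the 7 genes was not tested. Nearly all of it at the 4-cell stage was Amhr2, the receptor of anti-Mullerian hormone, at 184 ± 48.4 TPM (SD, n = 42) in control embryos, whereas Cyp19a1, the estrogen-making aromatase, was at 6.09 ± 5.13 TPM (n = 41) in control 2-cell embryos and 0.0362 ± 0.164 TPM (n = 42) in control 4-cell embryos.

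In the GENCODE vM21 annotation of mm10 the 7 genes lie on 6 chromosomes, and each position is that of the whole gene. Gdf9 is at chr11:53431023-53437904 on the plus strand, 192 bases from Uqcrq on the opposite strand. Bmp15 is at chrX:6314107-6320721 on the minus strand. Zp2 is at chr7:120126772-120145291 on the minus strand, Zp3 at chr5:135980099-135988624 on the plus strand, and Bcl2l10 at chr9:75347758-75351632 on the plus strand. Zp1, at chr19:10914287-10920632, and Oosp1, at chr19:11667460-11691150, are both on the minus strand of chromosome 19 and lie 0.747 Mb apart. The related Oosp3 lies 5905 bases from Oosp1, and Oosp2 lies on its other side. No other annotated gene overlaps any of the 7.

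Oocyte promoters in the mouse are known to be driven by FIGLA, which binds E-box elements of zona gene promoters together with a partner, and by NOBOX, a homeobox factor that binds TAATTG and TAATTA elements. RefSeq promoters of GRCm38.p6, from 250 bases before to 50 bases after the gene start, were at hand for 3 of the 7 genes. They are shown, 5' to 3' on the gene's strand, because they belong to genes that differ in how much transcript was left at the 4-cell stage. Capitals mark each match to the E-box letters CANNTG, which read the same on both strands. Bmp15 spans chrX:6320675-6320974, Zp3 spans chr5:135979855-135980154 and Oosp1 spans chr19:11691002-11691301.
Bmp15: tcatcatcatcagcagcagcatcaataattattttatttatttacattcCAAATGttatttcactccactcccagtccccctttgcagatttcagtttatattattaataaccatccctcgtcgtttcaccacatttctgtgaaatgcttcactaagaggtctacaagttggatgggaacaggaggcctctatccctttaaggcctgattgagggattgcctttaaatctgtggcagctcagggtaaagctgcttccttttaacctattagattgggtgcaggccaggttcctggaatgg
Zp3: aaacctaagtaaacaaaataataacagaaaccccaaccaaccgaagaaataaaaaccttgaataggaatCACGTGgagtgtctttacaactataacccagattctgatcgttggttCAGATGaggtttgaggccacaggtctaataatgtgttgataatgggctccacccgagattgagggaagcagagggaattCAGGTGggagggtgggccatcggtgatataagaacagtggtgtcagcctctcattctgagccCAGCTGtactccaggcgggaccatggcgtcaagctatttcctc
Oosp1: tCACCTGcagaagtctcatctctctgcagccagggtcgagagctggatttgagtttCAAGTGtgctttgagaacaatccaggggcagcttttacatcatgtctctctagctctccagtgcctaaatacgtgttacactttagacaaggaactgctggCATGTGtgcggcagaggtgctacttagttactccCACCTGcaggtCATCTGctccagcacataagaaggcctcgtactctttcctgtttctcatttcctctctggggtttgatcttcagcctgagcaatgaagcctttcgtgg
Oosp1 held 5 E-box matches, Zp3 held 4 and Bmp15 held 1. Of 32851 promoters of the same length, 72.3% held at least 1 such match and 17.6% held at least 3. In the Zp3 window the matches began 181, 134 and 55 bases before the gene start and at base 8 after it. The 6 letters TAATTA, searched with TAATTG on both strands, occurred once, in Bmp15, 225 bases before the start and apart from its E-box match, and 12.4% of all promoters held at least 1 of either. A match is a description of the letters only.

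All 7 transcripts were measured in 2-cell embryos, with medians from 39.8 to 3991 TPM in the control group. By the 4-cell stage 6 of 7 fell in control embryos, beside 36.9% of all genes that fell and 34.4% that rose, and 7 of 7 in low protein embryos, beside 37.6% and 34.5%. With both diets together, Bcl2l10 and Bmp15 had 0.717% and 0.738% of their 2-cell mean left. Oosp1, Gdf9 and Zp2 kept 3.69%, 4.18% and 4.51%, and Zp1 kept 14.5%. Zp3 kept 55.6%, and its larger fall came between the 4-cell stage and the morula. No member passed the test between embryos of control and low protein sires at any stage at which it was tested.

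**Figure D1:**
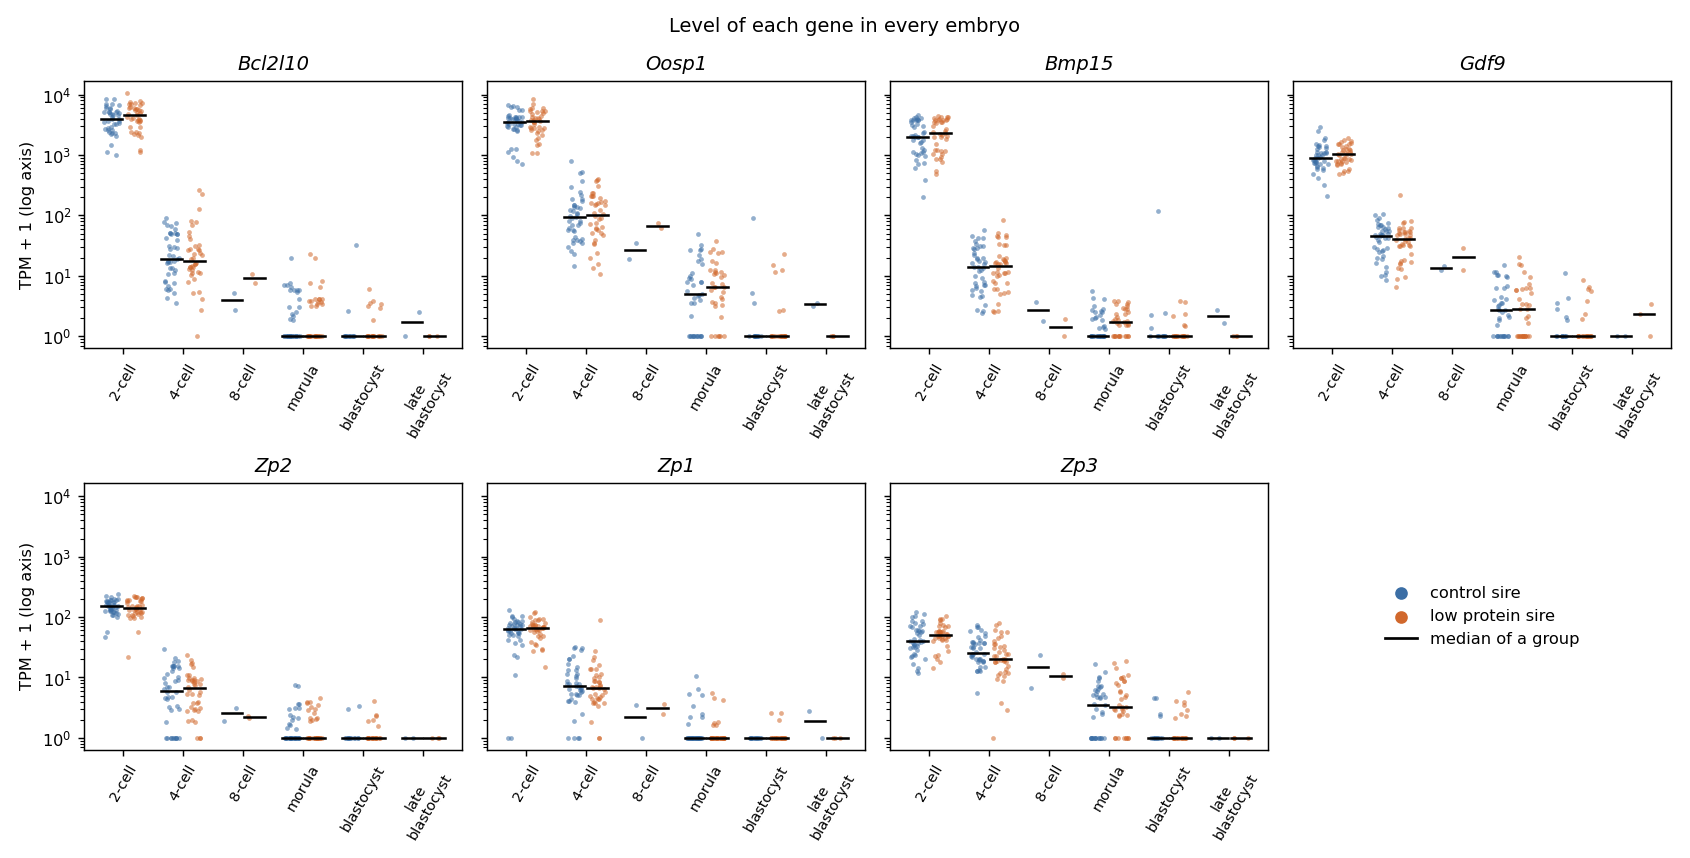
Level of each of the 7 genes in every embryo, as TPM + 1 on a log axis, by developmental stage. Blue points are embryos of control sires, orange points embryos of low protein sires, and black bars the median of each group. The 4-cell points lie far below the 2-cell points for every gene but Zp3, and 1 control blastocyst stands above the others for Bmp15, Oosp1 and Bcl2l10.

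The growth factors are described first. In 2-cell embryos Gdf9 ran from 207 to 2855 TPM with a median of 904 in the control group, and from 491 to 1899.5 TPM with a median of 1041 in the low protein group. Bmp15 was higher, from 200.02 to 4599.5 TPM with a median of 2009 in control embryos, and from 489 to 4425 TPM with a median of 2283 in low protein ones. At this stage Bmp15 exceeded Gdf9 in 62 of 80 embryos, with a median ratio of 2.62. At the 4-cell stage the order was turned. Gdf9 ran from 7.53 to 104 TPM with a median of 44.8 in control embryos, and from 5.42 to 216 TPM with a median of 38.95 in low protein ones. Bmp15 ran from 1.44 to 56.3 TPM with a median of 12.95 and from 1.54 to 84.2 TPM with a median of 13.5. Gdf9 now exceeded Bmp15 in 71 of 82 embryos, and the median ratio of Bmp15 to Gdf9 was 0.307. The lowest 2-cell value of Bmp15 was above its highest 4-cell value, so the stages did not overlap. For Gdf9, 1 of 82 4-cell embryos reached the lowest 2-cell value. The share of all genes whose stages did not overlap was not computed, so nothing particular to these genes is read from this.

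From 2-cell to 4-cell the control means went from 1024 ± 532 (SD, n = 41) to 44.5 ± 24.9 TPM (n = 42) for Gdf9 and from 2238 ± 1275 to 16.7 ± 13.6 TPM for Bmp15. Fold changes below are on the log2(TPM + 1) scale, which understates changes of low values, and come from limma fits across all genes with plate as a term and Benjamini-Hochberg adjustment. A step was called at an adjusted p under 0.05 and a change of 1 log2 unit or more. Gdf9 fell by 4.46 ± 0.23 (SE) log2 units in control embryos (adjusted p = 2.75e-40) and by 4.82 ± 0.24 in low protein ones (adjusted p = 2.00e-41). Bmp15 fell by 7.37 ± 0.24 (adjusted p = 2.30e-60) and by 7.52 ± 0.20 (adjusted p = 2.77e-71). In control embryos 46 of the 11054 genes tested had a larger fall than Bmp15.

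Among the zona genes, Zp2 had the highest level at the 2-cell stage, from 46.1 to 237 TPM with a median of 149 in control embryos and from 20.8 to 226 TPM with a median of 141 in low protein ones. Zp1 ran from 0 to 129 TPM with a median of 61.9 and from 14.2 to 119 TPM with a median of 65.5. The 2 control embryos with Zp1 at 0 were both on plate 4, with 6339 and 7759 genes detected beside a group median of 9370. They were also low in other members, with Gdf9 at 207 and 489 TPM, Bmp15 at 200.02 and 378 TPM and Zp2 at 46.1 and 55.6 TPM, while Zp3 was at 86.01 and 37.29 TPM. Zp3 was lowest, from 10.96 to 121 TPM with a median of 39.8 in control embryos and from 13.6 to 104 TPM with a median of 48.65 in low protein ones. At the 4-cell stage Zp2 ran from 0 to 28.3 TPM with a median of 5.07 in control embryos and from 0 to 22.6 TPM with a median of 5.64 in low protein ones. Zp1 ran from 0 to 30.6 TPM with a median of 6.20 and from 0 to 87.2 TPM with a median of 5.79. Zp3 ran from 4.58 to 73.4 TPM with a median of 24.8 and from 0 to 79.6 TPM with a median of 19.4. Of 82 4-cell embryos, 73 were at or above the lowest 2-cell value of Zp3, against 2 for Zp2. For Zp1 the stages overlapped, and not only through the 2-cell embryos at 0. Of 80 2-cell embryos, 68 were at or below its highest 4-cell value of 87.2 TPM. Most of this count rests on 1 embryo, low protein replicate 26 with 5071 genes detected. The next highest 4-cell value of Zp1 was 30.6 TPM, below the lower quartile of the 2-cell embryos, 48.5 TPM. The median ratio of Zp2 to Zp3 within an embryo went from 3.18 at the 2-cell stage to 0.195 at the 4-cell stage, and the median ratio of Zp3 to Zp1 from 0.737 to 3.68.

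Zp2 fell by 5.07 ± 0.23 log2 units in control embryos (adjusted p = 3.17e-45) and by 4.73 ± 0.20 in low protein ones (adjusted p = 7.81e-49). Zp1 fell by 3.03 ± 0.26 (adjusted p = 9.27e-22) and by 3.20 ± 0.19 (adjusted p = 1.37e-33). For Zp3 the log2 fold change was -0.59 ± 0.23 in control embryos (adjusted p = 0.0114), which is under the fold required. In low protein embryos Zp3 fell by 1.21 ± 0.25 (adjusted p = 4.80e-06). The mean level of Zp3 went from 49.027 ± 28.4 (SD, n = 41) to 30.4 ± 17.1 TPM (n = 42) in control embryos and from 51.9 ± 21.1 (n = 39) to 25.6 ± 18.8 TPM (n = 40) in low protein ones. The test of diet by stage, which takes the 4 larger stages jointly, found no difference for Zp3 (limma F test, adjusted p = 0.675). Its term for the 4-cell against the 2-cell stage was -0.56 log2 units. This step alone was not tested for diet, so the 2 diets are not shown to differ in it. Within plates, both diets together, Zp3 was lower at the 4-cell stage in 5 of 6 plates, and higher by 1.42 on plate 6, which held 3 embryos of each stage. In control embryos alone it was lower in 4 of 6.

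Of the others, Bcl2l10 was the most abundant of the 7 by median at the 2-cell stage. It ran from 1003 to 8528 TPM with a median of 3991 in control embryos and from 1139 to 10554 TPM with a median of 4621 in low protein ones. Oosp1 ran from 700.5 to 6742 TPM with a median of 3494 and from 1064 to 8324 TPM with a median of 3672. Together the 7 genes made up a summed median of 11838 TPM in control and 12622 TPM in low protein 2-cell embryos, of a fixed total of 1000000. At the 4-cell stage Bcl2l10 ran from 2.53 to 88.96 TPM with a median of 18.3 in control embryos and from 0 to 258 TPM with a median of 16.7 in low protein ones. Its 2 stages did not overlap, a separation for which, as for Bmp15, no share over all genes was computed. Oosp1 ran from 13.5 to 794 TPM with a median of 91.6 and from 9.86 to 405 TPM with a median of 99.8, and 1 of 82 4-cell embryos reached its lowest 2-cell value. Bcl2l10 fell by 7.41 ± 0.25 log2 units in control embryos (adjusted p = 2.39e-58) and by 7.74 ± 0.27 in low protein ones (adjusted p = 2.65e-58). Oosp1 fell by 4.83 ± 0.27 (adjusted p = 2.92e-36) and by 5.17 ± 0.24 (adjusted p = 2.61e-45).

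The median log2 fold change of the 7 genes was -4.83 in control embryos, beside -0.01 over all genes. The diets share plates and most egg donors, and no embryos. The 6 genes other than Zp3 were lower at the 4-cell stage in 6 of 6 plates that held both stages, both diets together.

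**Figure D2:**
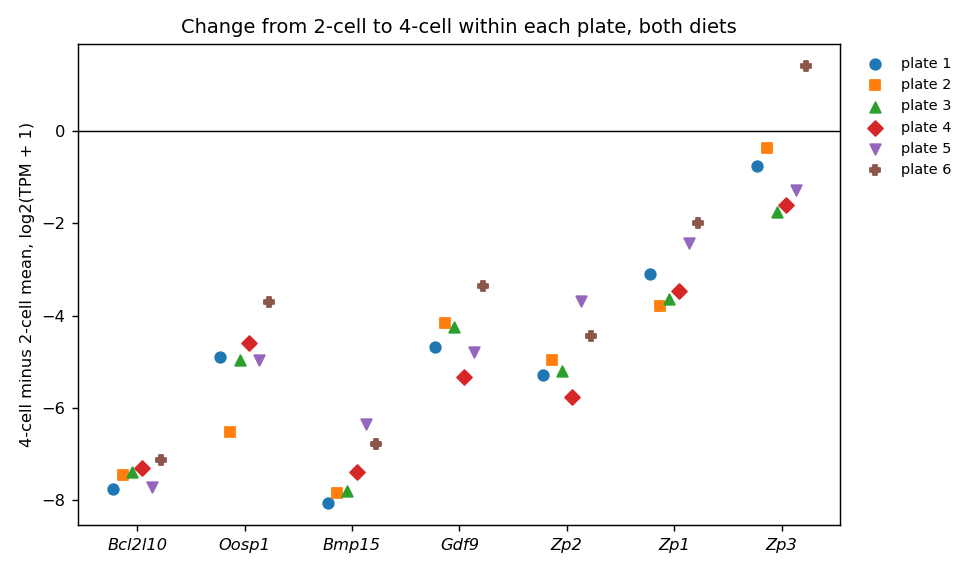
Difference between the 4-cell and 2-cell means within each of the 6 plates that held both stages, embryos of both diets together, in log2(TPM + 1). Each symbol is 1 plate. Every plate lies below 0 for the 6 other genes, and for Zp3 plate 6 lies above 0 at 1.42.

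By median the order of levels at the 2-cell stage was Bcl2l10, Oosp1, Bmp15, Gdf9, Zp2, Zp1 and Zp3. Gdf9 was above Zp2 in 80 of 80 embryos and Zp2 above Zp1 in 79 of 80, whereas Bcl2l10 was above Oosp1 in 49 of 80 and Zp1 above Zp3 in 54 of 80, so those neighbours overlapped. At the 4-cell stage the order was Oosp1, Gdf9, Zp3, Bcl2l10, Bmp15, Zp1 and Zp2. Oosp1 was above Gdf9 in 70 of 82 embryos, Gdf9 above Zp3 in 58, and Zp3 above Bcl2l10 in 46. Zp3 had moved from the last place to the third. The share of Zp3 relative to each of the other genes within an embryo was then compared between the 2 stages, a comparison chosen after its values were seen. Over 80 2-cell and 77 4-cell embryos of plates 1 to 6, the log2 ratio of Zp3 to another member went up by between 2.17 ± 0.25 (SE, against Zp1) and 6.64 ± 0.22 (against Bcl2l10). The change was positive in 6 of 6 plates for each of the 6 ratios. Each had p = 1e-05 in a two-sided permutation test of stage within plate with 100000 resamples. This is the smallest p these can give, also after adjustment over the 6 ratios. Zp3 was the member that fell least, and the ratios restate the falls given above in the same embryos. The p-values therefore follow from the choice of Zp3 and add no separate support.

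Between the 4-cell stage and the morula the 7 genes fell further, 7 of 7 in each diet, beside 26.4% of all genes in control and 23.7% in low protein embryos, while 9.93% and 11.5% of all genes rose. Zp3 now fell by 3.26 ± 0.24 log2 units in control embryos (adjusted p = 1.20e-25) and by 2.61 ± 0.27 in low protein ones (adjusted p = 2.91e-16). Oosp1 fell by 5.04 ± 0.29 and 4.58 ± 0.25 and Gdf9 by 3.90 ± 0.24 and 3.79 ± 0.26 in control and low protein embryos. Bmp15, Zp1, Zp2 and Bcl2l10 fell by 1.55 to 3.63 in control embryos, from 4-cell levels that were already low. Some embryos still held these transcripts as morulae. In control morulae Oosp1 ran from 0 to 48.7 TPM with a median of 3.92, and in low protein morulae from 0 to 36.3 TPM with a median of 5.61. Zp3 had medians of 2.54 and 2.29 TPM with highest values of 16.02 and 18.1 TPM. Gdf9 had medians of 1.69 and 1.80 TPM with highest values of 14.2 and 19.3 TPM. For Zp1, Zp2 and Bcl2l10 the median was 0 in both diets, and Bmp15 was listed at 0 in 32 of 73 morulae.

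**Figure D3:**
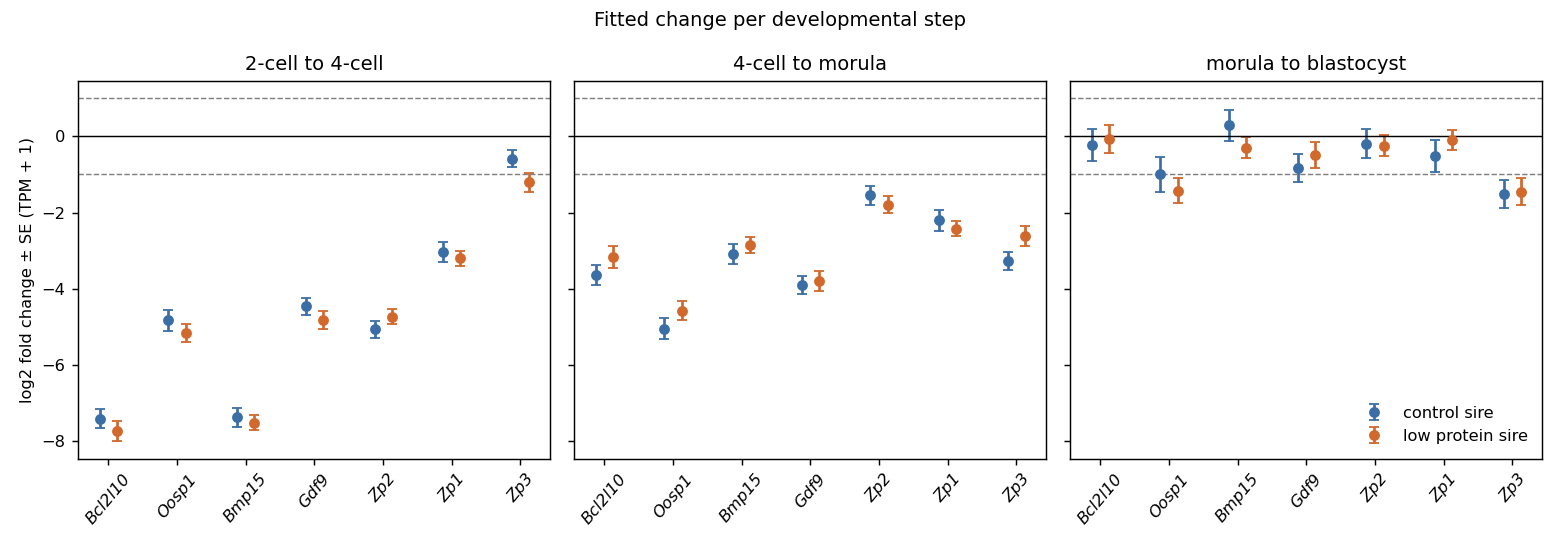
Fitted log2 fold change of each gene, with its standard error as bar, for 3 steps in embryos of control (blue) and low protein (orange) sires. Dashed lines mark 1 log2 unit up and down. At the 2-cell to 4-cell step Zp3 lies nearest to 0, and at the morula to blastocyst step most genes lie between the dashed lines.

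The 4 8-cell embryos, 2 per diet, were all from plate 3 and 1 egg donor. Gdf9 was at 13.3 and 11.5 TPM in the control and at 11.5 and 28.2 TPM in the low protein embryos. Bmp15 was at 0.75 and 2.62 TPM and at 0 and 0.89 TPM, and its median ratio to Gdf9 was 0.0439. Zp3 was at 5.68 and 22.7 TPM and at 10.2 and 8.93 TPM, above Zp2 in 4 of 4 embryos. Oosp1 was at 33.8 and 18.1 TPM and at 59.8 and 72.8 TPM, and Bcl2l10 at 4.10 and 1.75 TPM and at 6.64 and 9.68 TPM. The low protein values of Oosp1 and Bcl2l10 were the higher ones, and 2 embryos per diet were not tested. Against the 4-cell embryos of the same plate, 2 of 7 genes fell, beside 3.67% of all genes that fell and 0.92% that rose. These were Bmp15, by 2.35 ± 0.52 (limma adjusted p = 0.0112), and Oosp1, by 2.21 ± 0.54 (adjusted p = 0.0185). Leaving out 8-cell embryos ended these calls. Oosp1 lost its call without control replicate 1 (adjusted p = 0.0750) or 2 (adjusted p = 0.0793), and Bmp15 without low protein replicate 1 (adjusted p = 0.0625). From 8-cell to morula 4 of 7 fell, beside 12.8% of all genes that fell and 10.3% that rose. They were Gdf9, by 2.34 ± 0.59, Zp3, by 2.17 ± 0.60, Oosp1, by 2.27 ± 0.54, and Bcl2l10, by 2.09 ± 0.64, the last not without low protein replicate 1 (adjusted p = 0.0591) or 2 (adjusted p = 0.0801). Bmp15 had a log2 fold change of -0.02 ± 0.52 in that step.

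In blastocysts the median was 0 for all 7 genes in both diets. Zp1 was listed at 0 in 14 of 14 control and 19 of 22 low protein blastocysts. Zp3 was above 0 in 4 of 14 and 8 of 22, with highest values of 3.64 and 4.71 TPM. From morula to blastocyst, 1 of 7 genes fell in control and 2 of 7 in low protein embryos, beside 16.9% and 19.1% of all genes, and none of the 7 rose, beside 7.42% and 5.00%. Zp3 fell by 1.51 ± 0.37 (adjusted p = 0.000655) and by 1.45 ± 0.34 (adjusted p = 0.000255). Without plate 2, which held 11 of the 14 control blastocysts, the control value was -1.27 (adjusted p = 0.258). Oosp1 fell by 1.42 ± 0.32 in low protein embryos (adjusted p = 0.00014), and its log2 fold change in control embryos was -1.001 ± 0.45 (adjusted p = 0.0738). From 2-cell to blastocyst 7 of 7 fell in each diet, beside 47.1% and 47.3% of all genes that fell and 25.9% and 25.5% that rose. The 5 late blastocysts, on plate 7, held at most 2.54 TPM of any of the 7 genes. Oosp1 was at 2.54 and 2.19 TPM in the 2 control embryos and at 0 in the 3 low protein ones.

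A single control blastocyst, replicate 10 on plate 2, stood apart. It held Bmp15 at 119 TPM, where the other 35 blastocysts ran from 0 to 2.81 TPM. It held Oosp1 at 90.1 TPM against a highest other value of 22.3, Bcl2l10 at 31.1 TPM against 5.10, and Gdf9 at 10.1 TPM against 7.40. Zp1 and Zp3 were at 0 in it and Zp2 was at 2.32 TPM, within the range of the others. It was the highest of the 36 blastocysts for 893 genes, beside a median of 178 genes per blastocyst, and 1 other blastocyst was the highest for more genes. Of 35 other transcripts known to be stored in oocytes, 19 were above all other blastocysts, among them Btg4, a factor of maternal mRNA decay, at 883 TPM against a highest other value of 4.39. In all, 69 genes exceeded 5 times the highest other blastocyst, counted from a floor of 1 TPM. In low protein embryos, which do not include it, 69 of those 69 fell from 2-cell to 4-cell, beside 37.6% of all genes. The 69 were picked by a low level in the other blastocysts, the low protein ones included. A fall at an earlier step was thus favoured by the choice, and 37.6% is not a matched share. All 9 blastocyst genes, Cdx2, Krt8 and Nanog included, lay within the range of the other blastocysts in this embryo, and 9124 genes were detected, beside a median of 8467 in the others. Without it the control blastocyst mean went from 8.74 to 0.231 TPM for Bmp15, from 6.91 to 0.508 TPM for Oosp1 and from 2.34 to 0.128 TPM for Bcl2l10. Without it Oosp1 (by 1.42, limma adjusted p = 0.00364) and Gdf9 (by 1.02, adjusted p = 0.0259) also fell from morula to blastocyst in control embryos. That made 3 of 7, beside 16.9% of all genes that fell in the fit with this embryo. Leaving it out was chosen after the data were seen. This embryo was the highest blastocyst for Oosp1 and Gdf9, so larger falls follow from that choice and nothing is read from them.

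Oosp1 was also unevenly spread among low protein blastocysts. In the 5 on plate 6 it ran from 1.73 to 22.3 TPM with a median of 11.3, and in the other 17 from 0 to 1.60 TPM, so these did not overlap. Gdf9 had a median of 4.54 TPM in the 5 and 0 in the 17, with overlap. Plate 6 held no control blastocysts, and the part of the plate in this difference was not tested.

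The series set the diets of the fathers against each other. By limma within each stage, no gene passed an adjusted p of 0.05 among 10314 at the 2-cell stage (0%), 9820 at the 4-cell stage (0%), 9552 in morulae (0%) and 9378 in blastocysts (0%). Before adjustment, p was under 0.05 for 717, 511, 996 and 322 genes, none of them one of the 7. In morulae 6 of the 7 passed the filter on low values, Zp1 being left out, and in blastocysts 3 did, namely Gdf9, Zp3 and Oosp1. Over the 23 differences fitted, low protein minus control ran from -0.68 ± 0.43 (Oosp1 in blastocysts, p = 0.118) to 0.35 ± 0.30 (Zp3 in morulae, p = 0.2496) on the log2 scale. The smallest p was that of Zp3 at the 4-cell stage, where low protein embryos were lower by 0.42 ± 0.21 (p = 0.0531, adjusted p = 0.962). The Zp3 ranges of the 2 diets, 4.58 to 73.4 and 0 to 79.6 TPM, overlapped almost entirely. At the 2-cell stage the standard errors ran from 0.08 for Oosp1 to 0.24 for Zp1. A difference has to be well above its standard error to pass adjustment over all genes. The 4-cell difference of Zp3, 0.42 with a standard error of 0.21, did not pass, so real differences of such a size could be missed. The change between stages was also set against diet. By the F test of diet by stage, 14 of 11054 genes passed (0.127%) and none was one of the 7, with adjusted p between 0.675 (Zp3) and 1.00 (Bcl2l10). Before adjustment 1023 genes had a p under 0.05, and again none of the 7.

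Embryos of 1 stage differed more in some genes than in others. In 2-cell embryos the coefficient of variation was 28.996% for Zp2 and 54.3% for Bmp15, with the other genes between. In 4-cell embryos it ran from 64.1% for Zp3 to 130.4% for Bcl2l10. Much of the spread of Oosp1 lay between plates, 78.3% of its log2 variance in 2-cell and 61.2% in 4-cell embryos. Its plate medians ran from 1112 TPM on plate 5 to 6269 TPM on plate 3 at the 2-cell stage, and from 34.9 TPM on plate 5 to 302 TPM on plate 7 at the 4-cell stage. All 11 2-cell embryos of plate 5 lay at or under 1794 TPM, and the lowest 2-cell value on the other 5 plates was 1889.6 TPM. Plate 5 also carried the largest share of Rn45s, the ribosomal RNA precursor, with a median of 22.9% of the total. Its part in the Oosp1 level was not tested. Zp2 had 14.8% and Gdf9 23.5% of their 2-cell variance between plates.

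Bmp15 had 59.05% of its 2-cell variance between plates, with medians from 989 TPM on plate 4 to 4133 TPM on plate 6, and its order of plates differed from that of Oosp1. The plates also differ in egg donors. On plate 1, with 3 donors, the 2-cell medians of Bmp15 were 3444, 3791 and 3794 TPM by donor, and those of Oosp1 were 3965, 3700.3 and 3028 TPM.

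Whether the 7 genes varied together among embryos of 1 stage was examined over the 21 pairs at each of the 2-cell and 4-cell stages. Of 42 correlations of log2 levels, 12 passed an adjusted p of 0.05 in permutation tests, 6 per stage, and all 12 were positive. With plate means subtracted 17 passed, all positive. Pairs of other genes were not computed, so no share stands beside these counts, and they are not read as particular to the 7. The pair with the highest r after that was Bmp15 and Bcl2l10 at the 4-cell stage (Pearson r = 0.58, Spearman rho = 0.57, n = 82, p = 1e-05 for each, permutation, the smallest possible, adjusted over 42 to 0.00021). With the 2 embryos farthest from the median of the first-named gene left out, here Bmp15, r was 0.54. The second gene was not used to choose these embryos, here or in the pairs below. With plate means subtracted r was 0.70, and within the 5 plates of 6 or more embryos it ran from 0.53 to 0.87. At the 2-cell stage the same pair had r = 0.27 and rho = 0.30 (adjusted permutation p = 0.0538 and 0.0235). At that stage Bmp15 and Zp2 had r = 0.63 and rho = 0.52 (n = 80, permutation p = 1e-05 for each), r = 0.53 without the 2 farthest embryos and 0.20 to 0.74 within plates. Gdf9 and Zp1 had r = 0.50 and rho = 0.39 (n = 80, permutation p = 2.00e-05 and 0.0004), r = 0.36 without the 2 farthest and 0.08 to 0.79 within plates. Zp3 and Zp2 had r = -0.13 in 2-cell and 0.08 in 4-cell embryos, neither passing. Embryos share egg donors and sires, so these p-values treat as independent what is partly shared.

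The pathway of the 2 ligands was followed through 17 of 23 listed genes for processing enzymes, receptors, SMAD transducers and targets. From 2-cell to 4-cell in control embryos 9 fell and 3 rose, and in low protein embryos 9 fell and 4 rose. Of all genes in this step, 36.9% fell and 34.4% rose in control and 37.6% fell and 34.5% rose in low protein embryos, and the counts of the lists below stand beside these shares. Bmpr1b, the type I receptor used by BMP15, fell by 4.04 ± 0.14 log2 units, from 25.97 ± 11.1 (SD, n = 41) to 0.865 ± 1.27 TPM (n = 42). Smad3, a transducer of GDF9 type signals, fell by 3.56 ± 0.18, and Smad1, of BMP type signals, by 3.11 ± 0.17. Id3, a target of BMP signals, rose by 4.53 ± 0.32, from 3.83 ± 6.74 to 93.4 ± 78.96 TPM. Id1 and Id2 of the same list had lower means at the 4-cell stage, so the listed targets did not move together. In control embryos Id1 went from 35.4 ± 43.8 to 4.22 ± 4.74 TPM and Id2 from 13.8 ± 16.03 to 2.64 ± 6.21 TPM. The median over the 17 was -1.17, beside -0.01 over all genes.

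Among 8 of 10 listed transcription factors of the oocyte, 7 fell in control and 7 in low protein embryos, and none rose. Nobox fell by 6.75 ± 0.22, from 310.3 ± 148 to 2.73 ± 3.24 TPM, and Lhx8, a LIM homeobox factor of oocytes, fell by 6.29 ± 0.18. Tbpl2, the oocyte form of the TATA-binding protein, fell by 3.47 ± 0.18 and was listed at 0 in all control 4-cell embryos. Foxo3, which restrains follicle activation, fell by 3.03 ± 0.22. Of 6 of 11 listed genes of the egg surface and its partners, 3 fell and 2 rose in each diet, where 36.9% of all genes fell and 34.4% rose in control embryos, so with 6 genes nothing is read from these counts. Izumo1r, known as Juno and the egg receptor of the sperm protein IZUMO1, fell by 6.58 ± 0.20. Astl, the cortical granule protease ovastacin that cleaves ZP2 after fertilization, fell by 4.44 ± 0.22, from 93.1 ± 55.2 to 3.70 ± 3.36 TPM. Zp3r, known as a sperm acrosome protein, fell by 2.66 ± 0.18, and Mfge8, a secreted adhesion protein, rose by 4.24 ± 0.28.

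The neighbours of Oosp1 had fallen too. Oosp3 fell by 7.80 ± 0.24, from 4034 ± 1342 to 29.2 ± 49.5 TPM in control embryos, and Oosp2 by 6.52 ± 0.23, both more than Oosp1 in the same fit. Of the 4 genes of that family, Oosp1 included, 3 fell in control and 4 in low protein embryos. Plac1, a gene of the placenta, had a log2 fold change of -0.70 ± 0.25 in control embryos. For Bcl2l10 most of the listed relatives went the other way. Of 13 of 21 other Bcl2 family genes, 9 rose and 3 fell in control embryos and 8 rose and 3 fell in low protein ones, with a median of 1.98 in control embryos. Bcl2l14 rose by 6.21 ± 0.23, from 4.63 ± 6.81 to 231.7 ± 67.99 TPM. Bad, a death-promoting member, rose by 5.69 ± 0.26, and Bok by 4.11 ± 0.29, whereas Bik, another death-promoting member, fell by 4.36 ± 0.18. Bcl2l1, the relative with the highest mean in control 2-cell embryos, was also lower later, going from 299 ± 102 to 34.3 ± 13.4 TPM.

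Of 36 listed transcripts stored in oocytes, Zp2 included, 32 fell and 1 rose in control embryos and 33 fell and 1 rose in low protein ones. Among its members Obox5, an oocyte homeobox gene, fell by 8.20 ± 0.26 in control embryos. Rfpl4 fell by 8.12 ± 0.26, Btg4 fell by 8.00 ± 0.27 and Tcl1b1 fell by 7.80 ± 0.26. The median of the list was -4.17, beside -4.83 for the 7 genes. Of 10 genes of 2-cell transcription 9 fell and 1 rose. The list of cumulus and granulosa markers had Amhr2 rising by 4.77 ± 0.31, Cyp19a1 falling by 2.33 ± 0.17 and Col4a1 at -0.68 ± 0.18.

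The genes whose levels followed the 7 most closely were ranked by Pearson r with the mean z-scored level of the 7 over the 135 control embryos of the 4 larger stages, as a description. The 10 highest were Phf1, Accsl, Btg4, D6Ertd527e, Trim61, Gdap1, Spin1, E330021D16Rik, Zbed3 and Oas1d, with r from 0.97 to 0.98. Phf1 averaged 571 TPM at the 2-cell stage, 16.8 TPM at the 4-cell stage and 0.53 TPM in morulae. Among the 7, r with that mean was highest for Gdf9 (0.98) and lowest for Zp3 (0.84). Each of the 7 is itself part of the mean, which raises its r, so these values are not comparable with those of the other genes.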

How the data were processed

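The authors deposited TPM per gene and embryo. Per the submitters' processing notes, Bowtie and mm10 were used, with no version or setting named. The values were used unchanged. Per the labels the libraries were single-cell RNA-seq with Nextera. Per-embryo sums ran from 985115 to 998407 TPM, and no gene row had a highest value under 5.87 TPM.

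Values were tested as log2(TPM + 1) with limma 3.58.1 (trend, robust) in R 4.3.3 and described in Python 3.11.15. A gene was kept where 25% or more of one stage's embryos reached 1 TPM, and p-values were adjusted over all of them. Stage steps were fitted per diet over 4 stages with plate as a term, diet within each stage with plate, and 8-cell embryos within plate 3 with diet. Sire, egg donor, plate and 1 embryo were tried as alternatives. The fits were tested on simulated data. Replicate numbers follow accession order and pair nothing.

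The 7 genes and the lists were chosen with earlier results of these data known. From each other list up to 4 genes are named, those with the largest change called from 2-cell to 4-cell in control embryos. Id1 and Id2 are given in addition, beside Id3, and Bcl2l1 beside the named Bcl2 family genes. Btg4, Cdx2, Krt8, Nanog and Zscan4d were chosen as examples. Positions are from GENCODE vM21.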

Additional observations from a re-analysis of the deposited data

How the results depend on the processing

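Of 247 counts recomputed under an alternative, 239 stayed within 1.5 times the reported count, and of 1168 values of single genes 1137 kept their direction and their side of the threshold. The counts of genes that fell from 2-cell to 4-cell, from 4-cell to morula and from 2-cell to blastocyst were the same under each alternative, and no diet difference was called under any. The control step from morula to blastocyst was the least stable, with 1 gene called as reported, 3 with a pseudocount of 0.1, 2 without the plate term, 3 with array weights, 2 without plate 7, and 3 without control blastocyst replicate 10, an alternative chosen after the data were seen. The 4-cell to 8-cell count was 1 to 2 with each 8-cell embryo left out in turn.

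Directions turned only for values that passed no test. Bmp15 from morula to blastocyst in control embryos went from 0.29 to -0.068 with array weights, -0.53 without plate 2 and -0.14 without replicate 10. In low protein embryos Zp1 went from -0.10 to 0.016 after quantile normalization, 0.012 with sire as a correlated block and 0.14 without plate 2, and Bcl2l10 from -0.07 to 0.10 with array weights, 0.070 without plate 3 and 0.35 without plate 6. Bmp15 from 8-cell to morula went from -0.02 to 0.15 with a pseudocount of 0.1, and to between -0.29 and 0.27 with 1 embryo left out. The diet difference of Oosp1 in blastocysts was 0.077 without the plate term and 0.40 over sire means, and 11 of 23 diet differences changed sign under some alternative. The cause was not tested.

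Quantile normalization moved the median gene from -0.01 to 0.14 in the control step from 2-cell to 4-cell. Relative to it, Zp3 was at -0.66 and Bmp15 at -7.73. No paired analysis by replicate number was possible because the numbers are given in accession order. Embryos of both diets do share egg donors, and with egg donor as a correlated block the diet comparison called 0 of the members at each of the 4 stages and no count of stage steps changed. TPM keeps no depth, so a level of 0 has no limit of detection here, and fold changes of genes near 0 depend on the pseudocount.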

Other observations

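A few 4-cell embryos held several of the 7 transcripts at high levels. Low protein replicate 26, on plate 4 and with 5071 genes detected, had the highest Zp1 (87.2 TPM) and Bcl2l10 (258 TPM) of the stage, with Zp2 and Zp3 listed at 0. Low protein replicate 14, on plate 1, had the highest Gdf9 (216 TPM), with Bcl2l10 at 127 TPM and Oosp1 at 209.7 TPM. Control replicate 40, on plate 6, had the highest Oosp1 (794 TPM), with Bmp15 at 56.3 TPM and Zp3 at 58.3 TPM. Low protein replicate 40 had the highest Bmp15 (84.2 TPM) and was the only embryo on plate 8, so in fits with a plate term it does not bear on any difference.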
